A study of Mus musculus with 6 samples.

Results

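The microRNA content of the mouse oviduct was described from the 3 oviduct libraries of a small RNA sequencing series. Members were taken as the mouse microRNA names of the deposited count table in the columns of these libraries, which are 3 of the 6 libraries analysed in the series. The table lists 1915 mouse names, of which 633 had at least 1 count in an oviduct library and 1282 had none. The oviducts came from untreated mice of the genotype Dicer1+/D1693N, so every library carries 1 normal and 1 D1693N allele of Dicer1. The other libraries of the series are primary tumors of the genotype Dicer1ko/D1693N and are not used. No wild-type oviduct was analysed here, so the values below describe heterozygous tissue and not a wild-type reference. The labels give neither age nor strain, and they do not say whether the 3 oviducts came from separate animals, so p-values rest on how far these samples differ, which may be technical variation. The series text speaks of more oviducts than the 3 analysed here.

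A microRNA is cut from a hairpin-shaped precursor, first by Drosha in the nucleus and then by Dicer in the cytoplasm. Dicer holds a pair of cutting domains, and each makes the cut beside one of the strands of the stem. The strand from the 5′ side of the hairpin is called 5p and the strand from the 3′ side 3p. One of them is usually loaded into an Argonaute protein while the other is degraded, so the arm that dominates differs from hairpin to hairpin. The seed, bases 2 to 8 of the mature strand, pairs with target messenger RNAs, and strands with the same seed are grouped into a family. The oviduct is a tube of smooth muscle and fibroblast-rich stroma lined by an epithelium of multiciliated and secretory cells. D1693N lies in the RNase IIIb domain of Dicer, which cuts beside the 5p strand.

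The libraries held 375614, 580390 and 297039 mouse microRNA counts. Levels are given as the percent of these counts or as CPM (the count scaled to a common library size), and 3 counts in a library correspond to between 5.17 and 10.1 CPM. Mature sequences were matched to RefSeq on GRCm38.p6 by name, which gave a sequence for 1623 of the 1915 names. Their median length was 22 bases and 1359 had 21 to 23 bases, so levels were compared between names without a length correction. Whether the library kit captured all sequences equally well was not tested.

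The sequences below are those of the most counted strands and carry most of the counts outside miR-143. They are written 5′ to 3′ as RNA, with the seed in capitals.
miR-10b-5p: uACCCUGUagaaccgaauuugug
miR-10a-5p: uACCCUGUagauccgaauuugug
miR-26a-5p: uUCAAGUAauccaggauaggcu
miR-27b-3p: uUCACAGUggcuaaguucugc
miR-148a-3p: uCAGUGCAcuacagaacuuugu
miR-22-3p: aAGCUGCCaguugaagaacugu
let-7f-5p: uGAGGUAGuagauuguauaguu
miR-30a-5p: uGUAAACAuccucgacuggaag
miR-181a-5p: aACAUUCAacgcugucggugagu
let-7c-5p: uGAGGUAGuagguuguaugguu
miR-191-5p: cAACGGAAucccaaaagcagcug
miR-21a-5p: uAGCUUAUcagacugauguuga
The other names among the 15 most counted are miR-143-3p, miR-34c-5p and miR-30d-5p. The mature strand of miR-10b lies at chr2:74726074-74726096 on the plus strand of GRCm38, in a hairpin annotated within introns of Hoxd3 and Hoxd4. That of miR-10a lies at chr11:96317186-96317208 on the plus strand, with no annotated host gene on its strand. The strand of miR-26a is encoded at both chr9:119031811-119031832, in an intron of Ctdspl, and chr10:126995543-126995564, where the annotation gives an exon of Ctdsp2. Hairpins of the others lie in an exon of Mir22hg (miR-22), an exon of Vmp1 (miR-21a) and an intron of Huwe1 (a copy of let-7f), while those of miR-148a and miR-30a had no annotated host on their strand.

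One strand dominated the oviduct. miR-143-3p, a microRNA typical of smooth muscle and fibroblasts, took 44.1%, 45.8% and 47.2% of the counts of the 3 libraries, a mean of 45.7% ± 1.56 (SD, n = 3). It was the most counted name in every library and its counting interval was narrow, from 43.95% to 44.27% in oviduct 1 (Clopper-Pearson, 95%). These intervals and the floors cover counting error only, because reads copied by PCR and carrying no molecular identifier do not count molecules. The SD between libraries was thus larger than the counting error.

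A pair of near-identical strands followed. miR-10b-5p, encoded among the HoxD genes, took 14.7%, 13.6% and 18.5% (15.6% ± 2.56). miR-10a-5p, encoded in the HoxB cluster, took 7.48%, 7.53% and 4.94% (6.65% ± 1.49). They held ranks 2 and 3 in every library. miR-10b-5p was high in oviduct 3, the library in which miR-10a-5p was low. Counted from 1 at the 5′ end, the single difference from miR-10a-5p to miR-10b-5p is U12A, outside the seed.

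The next group held 8 names between 1% and 3% of the counts. miR-26a-5p, which is encoded within genes of the Ctdsp phosphatases, took 3.53%, 3.14% and 1.90% (2.86% ± 0.849), with oviduct 3 the lowest. miR-27b-3p, known for targets in lipid metabolism, took 1.98% ± 0.202 and miR-148a-3p, common in epithelia and secretions, 1.97% ± 0.216. miR-22-3p, abundant in muscle tissues, took 1.602%, 2.33% and 1.37%, with oviduct 2 the highest. let-7f-5p, of the let-7 family that marks differentiated tissues, took 1.40%, 1.55% and 1.89%, with oviduct 3 the highest. miR-30a-5p took 1.52% ± 0.189, miR-34c-5p, a strand typical of multiciliated cells, 1.37% ± 0.312, and miR-181a-5p, studied chiefly in lymphocytes and differentiation, 1.35% ± 0.193. Names at ranks 12 to 15 of the mean order were let-7c-5p at 0.720% ± 0.0954, the broadly expressed miR-191-5p at 0.714% ± 0.0903, miR-30d-5p at 0.711% ± 0.113 and miR-21a-5p, often raised in injured or growing tissue, at 0.656% ± 0.0456.

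**Figure D1:**
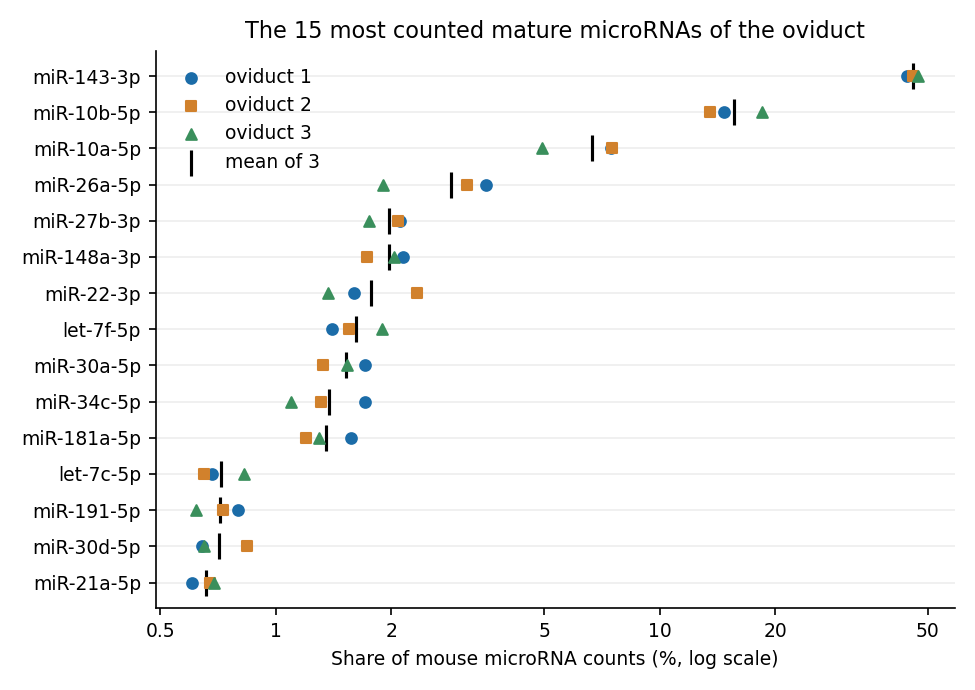
Share of mouse microRNA counts (%, log scale) of the 15 most counted mature names in oviduct 1 (circles), oviduct 2 (squares) and oviduct 3 (triangles), with the mean of 3 as a vertical bar. The first 3 names stand apart from all that follow, while from miR-26a-5p to miR-181a-5p the points of neighbouring names interleave.

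The order was firm at the top and loose below it. Of the 14 pairs of neighbours among the first 15 names, 10 overlapped in their ranges over the 3 libraries, and only 5 stood in the same order in all 3. The ranges were separate between miR-143-3p and miR-10b-5p, between miR-10b-5p and miR-10a-5p, between miR-10a-5p and miR-26a-5p, and between miR-181a-5p and let-7c-5p. Among the 8 names from miR-26a-5p to miR-181a-5p the range of each overlapped that of the next, although miR-26a-5p was above miR-27b-3p in every library. As sets, the leading names were steady: 8 names were in the top 10 of every library out of 11 that reached any top 10, 45 of 56 in the top 50 and 91 of 109 in the top 100.

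The counts were concentrated on few names. In each library 2 names sufficed for 50% of the counts, and 25, 27 and 22 names for 90%. The top 5 names held 73.0% ± 1.39, the top 10 81.2% ± 1.09 and the top 50 95.8% ± 0.301. The inverse Simpson number, the count of equally shared names that would give the same concentration, was 4.43, 4.21 and 3.81, lowest in oviduct 3.

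Both miR-143 and the miR-10 hairpins weighed on this concentration. With that hairpin left out of the total, the top 10 names held 67.6% ± 1.41, 40, 43 and 40 names were needed for 90%, and the inverse Simpson number was 9.95, 10.6 and 7.09. With miR-10a and miR-10b left out as well, the top 10 held 49.96% ± 1.28, 54, 59 and 58 names were needed for 90%, and the inverse Simpson number was 27.7, 30.1 and 31.6. Oviduct 3 was the most concentrated library while the miR-10 hairpins were counted and the least concentrated by this number without them.

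**Figure D2:**
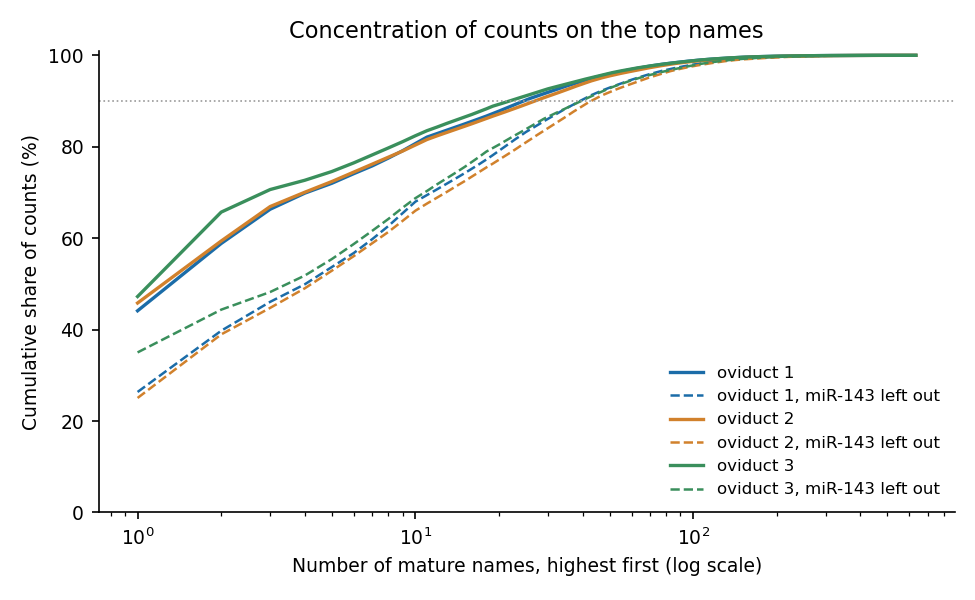
Cumulative share of counts (%) against the number of mature names, highest first (log scale), for each oviduct library with all names (solid) and without the miR-143 hairpin (dashed). The dotted line marks 90%, which the solid curves reach at 22 to 27 names and the dashed curves at 40 to 43.

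Below these leaders the levels fell off over many names. A mean of at least 10000 CPM was reached by 11 names, which held 82.4% of the counts. Between 1000 and 10000 CPM there were 43 names with 13.9%, and between 100 and 1000 CPM 89 names with 3.23%. A further 126 names between 10 and 100 CPM held 0.427%, and 364 names under 10 CPM held 0.0927%.

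Detection of the rarest names followed depth. Libraries showed 450, 542 and 437 names with at least 1 count, most in the deepest. At a depth of 297039 counts the expected numbers were 426, 455 and 437, a narrower range. In all 3 libraries 345 names were counted, and these held at least 99.9% of the counts of each. The 182 names counted in 1 library had a median of 1 count and at most 5.

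Most hairpins gave nearly all their counts from 1 arm. Of the 778 hairpins with both arms named, 140 had a mean of at least 20 counts over the libraries and were tested, and these held 98.99% of all counts. The 5p and 3p counts differed in 134 of the 140 (95.7%, edgeR's quasi-likelihood test within libraries, two-sided, Benjamini-Hochberg adjusted p under 0.05). An excess of 5p was called in 75 (53.6%) and of 3p in 59 (42.1%). All 134 called hairpins had the same arm ahead in the 3 libraries, and in the 6 others the leading arm changed between libraries. The minor arm made up less than 1% of the hairpin in 70 hairpins, 1% to 10% in 43 and 10% or more in 27, and its median was 0.942%. All minor arms together held 0.833% ± 0.0832 of the counts of hairpins with both arms named.

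Although more hairpins favoured 5p, more counts were 3p. Names ending in 3p held 56.5%, 58.6% and 58.1% of the counts and names ending in 5p 42.5%, 40.6% and 41.2%, in every library with 3p ahead. miR-143-3p alone accounted for 45.7%, more than all 5p names together.

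The 4 most counted hairpins were read almost wholly from 1 arm. miR-143 had 42 5p counts against 165697 3p counts in oviduct 1, 84 against 265912 in oviduct 2 and 25 against 140297 in oviduct 3, a log2 ratio of 5p to 3p of -11.97 (SE 0.44, edgeR adjusted p = 1.54e-79). miR-10b had 55308, 78725 and 54857 5p counts against 5, 12 and 1 3p counts, a log2 ratio of 13.40 (SE 0.45). miR-10a had 86492 against 31 summed over the libraries, a log2 ratio of 11.43 (SE 0.41). miR-26a had 37148 against 2. In these hairpins the minor arm was under 0.1% in every library.

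Some hairpins of moderate level showed no count of the minor arm. The 5p strand alone was counted for miR-182, a microRNA of sensory and other epithelia, with 831, 962 and 579 counts, at least 791-fold above a floor of 3 counts over the group. The same held for miR-204 (1229 counts, at least 410-fold), known from the eye and choroid plexus, miR-192 (1043 counts, at least 348-fold), known from gut and kidney, and miR-146a (627 counts, at least 209-fold), a microRNA of inflammatory signalling. The 3p strand alone was counted for miR-429, an epithelial microRNA of the miR-200 family, with 466, 1690 and 388 counts (at least 848-fold). It was also the only strand for miR-375 (1696 counts, at least 565-fold), known from pancreatic islets, and for miR-103 (1641 counts, at least 547-fold), miR-23b (1521 counts, at least 507-fold) and miR-25 (1390 counts, at least 463-fold). miR-92b had 7184 3p counts beside 1 5p count, miR-22 23573 beside 11, and miR-191 9059 5p counts beside 7 3p counts. In all, 30 of the 140 hairpins had a minor arm at 0 counts, and their fitted ratios depend on the prior count and are not bounds.

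**Figure D3:**
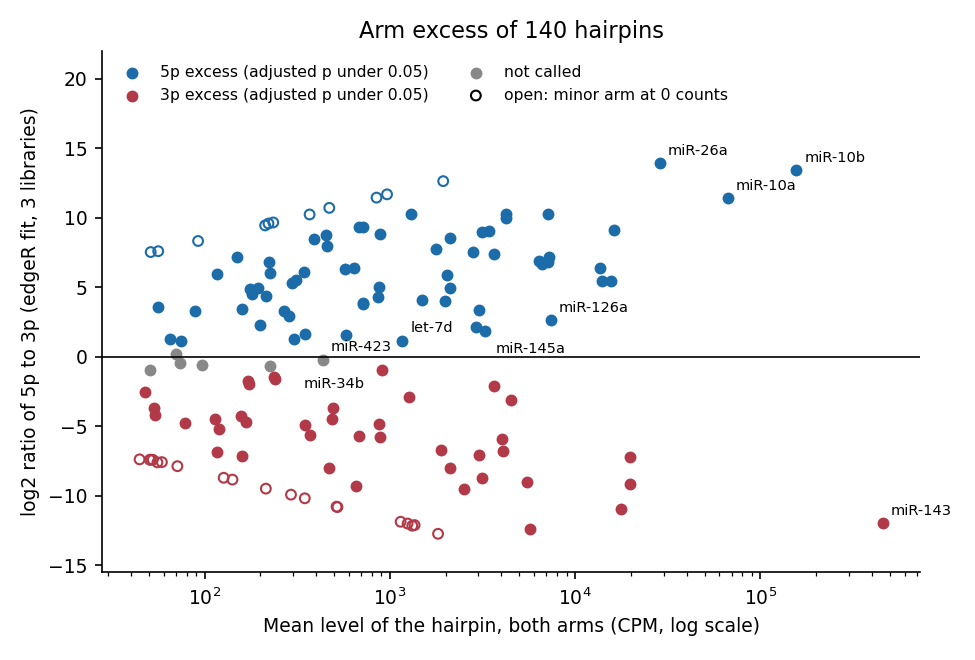
log2 ratio of 5p to 3p counts (edgeR, 3 libraries) against the mean level of the hairpin (CPM of both arms, log scale) for the 140 hairpins tested. Blue points favour 5p, red points 3p, grey points were not called, and open points had a minor arm at 0 counts, where the plotted value depends on the prior count; 134 of the points are coloured and few lie near 0.

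A few hairpins kept both arms. miR-423, a broadly expressed hairpin, had 5p shares of 49.7%, 38.1% and 52.8%, and the arms did not differ by the test (log2 ratio -0.21, SE 0.36, edgeR adjusted p = 0.553). The arms of miR-708, miR-136, miR-106b, miR-339 and miR-455 were not called either, with edgeR adjusted p from 0.088 to 0.667, and each had at most 164 counts on an arm. let-7d gave 72.7%, 71.2% and 62.8% 5p (log2 ratio 1.16, SE 0.32). miR-872 gave 71.0% ± 4.06 and miR-322, encoded on the X chromosome, 74.6% ± 3.17. miR-28a gave 71.5%, 85.0% and 65.2%, but its 5p counts equal those listed for miR-28c in every library. On the 3p side, miR-214, a mesenchymal microRNA, gave 30.9%, 22.8% and 21.2% 5p. miR-145a, the partner of miR-143 in a shared transcript, gave 71.4%, 77.2% and 86.2% 5p (log2 ratio 1.89, SE 0.29), the opposite arm from miR-143. Among the leading hairpins the endothelial miR-126a kept the most of its minor arm, with 85.6% ± 4.398 5p. The strands of 3 hairpins read from both arms are shown with their seeds in capitals, so that the 5p and 3p seeds of 1 hairpin can be compared.
miR-423-5p: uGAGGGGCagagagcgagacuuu
miR-423-3p: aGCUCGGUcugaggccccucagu
let-7d-5p: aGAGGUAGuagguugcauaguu
let-7d-3p: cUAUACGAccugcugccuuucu
miR-34b-5p: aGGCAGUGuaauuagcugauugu
miR-34b-3p: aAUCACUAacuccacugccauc

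The closely linked miR-34b and miR-34c favoured opposite arms. miR-34b had 5p shares of 43.5%, 27.9% and 33.4% (382 5p against 742 3p counts, log2 ratio -0.91, SE 0.33, edgeR adjusted p = 0.0071), a call that was lost without oviduct 2 (adjusted p = 0.166). miR-34c had 97.7% ± 0.751 5p, with 17291 5p against 385 3p counts. The 5p strand of miR-34c was 44.3, 54.7 and 33.2 times as abundant as that of miR-34b, while the 3p strand of miR-34c was 0.601, 0.460 and 0.549 times as abundant as that of miR-34b. Which of the hairpins counts as the higher one thus depended on the arm.

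Hairpins that share a number otherwise favoured the same arm. Of 21 numbers with at least 2 tested hairpins, 20 had all hairpins called to 1 arm, and the exception was miR-34. The 8 let-7 hairpins, the 5 miR-30 hairpins and the 4 miR-181 hairpins were all called to 5p, as were both hairpins of miR-10, miR-26, miR-125 and miR-99. The 3 miR-200 hairpins, the 3 miR-29 hairpins and both hairpins of miR-27, miR-148, miR-92, miR-101, miR-199 and miR-23 were all called to 3p. Hairpins of 1 number have similar sequences, and some share reads, so they are not independent.

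The dominant arms often began with U. Among names with a RefSeq sequence, 653 of 1623 (40.2%) start with U, and these held 84.3% ± 1.55 of those names' counts. The names with a sequence held only 47.72% to 49.98% of the counts of a library. miR-143-3p, the most counted strand, had no sequence and is not part of these shares. Names starting with U were 60 of 120 for means from 100 CPM upwards and 31 of 42 (73.8%) from 1000 CPM, where 0 started with G. Of the 103 called hairpins with sequences for both arms, the dominant arm started with U in 64 and the other arm in 16. U stood on the dominant arm alone in 55, on the other arm alone in 7, on both in 9 and on neither in 32. C was the first base of the dominant arm in 14 and of the other arm in 40. The few most counted strands weigh on the share of counts, whereas the counts of hairpins weigh each hairpin alike.

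Pooling strands by seed left the top of the order in place. miR-143-3p stood first, but as a single name, because it had no RefSeq sequence and its seed was not compared. The 99 counted names that stood alone in this way held 47.6% to 50.5% of the counts. The family with the seed ACCCUGU, miR-10a-5p and miR-10b-5p, took 22.2%, 21.1% and 23.4% (22.2% ± 1.15). The let-7 and miR-98 family (seed GAGGUAG) had the third highest mean, with 3.36%, 3.58% and 4.50% (3.81% ± 0.606). In oviduct 1 it stood behind the miR-26 family, and without oviduct 3 their order turned, with means of 3.47% for let-7 and 3.69% for miR-26. It has 11 names, 9 of them counted, and let-7f-5p supplied 42.3% of it. The miR-26 family (UCAAGUA) took 3.87%, 3.51% and 2.28%, and the miR-30 family (GUAAACA), with 5 of 6 names counted, 2.92%, 2.80% and 2.62%. The let-7 family was highest in oviduct 3, where the miR-26 family was lowest.

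Families at lower shares were mostly led by 1 strand. The miR-27 family took 2.04% ± 0.219, with 96.8% of it from miR-27b-3p. The family of miR-148 and miR-152 took 2.02% ± 0.214, with 97.4% of it from miR-148a-3p, and miR-22-3p stood alone with 1.76% ± 0.501. The miR-181 family took 1.67% ± 0.2001 and the miR-34 and miR-449 family (GGCAGUG) 1.44% ± 0.307, with 95.4% of the latter from miR-34c-5p. In contrast, the family with the seed AUUGCAC (miR-25, miR-92a, miR-92b, miR-32 and miR-363) took 1.23% ± 0.0683 with 46.4% from its highest strand. miR-199a-3p and miR-199b-3p have the same sequence and the same counts, and together they were listed at 0.804% ± 0.133, or 0.406% if the shared counts are taken once. Families to reach 90% numbered 15, 15 and 12, against 25, 27 and 22 single names, and the top 10 families held 86.8% ± 1.25. Each name that stood alone for want of a sequence counts as a family here, among them miR-486a-5p and miR-486b-5p, which have the same counts.

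Within families, strands that differ by 1 or a few bases had their own levels. The ratio of miR-10b-5p to miR-10a-5p was 1.97, 1.80 and 3.74, while their sum had a coefficient of variation of 5.19%, against 16.4% and 22.3% for the single strands. The ratio of miR-26a-5p to miR-26b-5p, which differ by C11U and C21U, was 10.4, 8.47 and 5.02, and here miR-26b-5p stayed near 0.363% ± 0.0206 while miR-26a-5p was lowest in oviduct 3. let-7f-5p, which differs from let-7a-5p by G12A, was 2.69, 2.67 and 2.38 times as high as let-7a-5p. miR-92b-3p and miR-92a-3p, which differ by U10C and G21C from miR-92a-3p, were nearly equal at ratios of 1.01, 1.14 and 1.01. How reads were assigned between strands this alike is not given in the sources used here.

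The 5 strands of the miR-200 family are shown because their levels differed between the libraries in different ways. They carry 2 seeds, AAUACUG and AACACUG.
miR-200b-3p: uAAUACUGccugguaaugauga
miR-429-3p: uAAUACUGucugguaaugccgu
miR-200c-3p: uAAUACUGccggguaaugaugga
miR-141-3p: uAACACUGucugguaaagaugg
miR-200a-3p: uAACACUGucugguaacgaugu

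The miR-200 family, which maintains the epithelial state by repressing Zeb1 and Zeb2, is made from a cluster on chromosome 4 (miR-200b, miR-200a and miR-429) and a cluster on chromosome 6 (miR-141 and miR-200c). miR-200b and miR-429 were both highest in oviduct 2: miR-200b had 499, 1637 and 442 counts and miR-429 466, 1690 and 388. Their strands stayed near a ratio of 1, at 1.06, 0.964 and 1.12. miR-200a, from the same cluster, took 0.0908%, 0.0877% and 0.0828% and was not higher in oviduct 2, so the ratio of miR-200b-3p to miR-200a-3p was 1.46, 3.34 and 1.88. miR-141 was highest in oviduct 1 with 2237, 2465 and 558 counts, or 0.596%, 0.425% and 0.188%. The ratio of miR-141-3p to its cluster partner miR-200c-3p was 19.3, 7.62 and 3.35. Levels of strands from 1 cluster thus varied by up to 5.74-fold relative to each other between libraries of the same group.

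Hairpins typical of single cell types were summed as lists. In bulk tissue, fewer cells of a type and less RNA per cell cannot be told apart, and several of these hairpins are made by more than 1 cell type. The smooth muscle and fibroblast list (miR-143, miR-145a and miR-145b) took 44.4%, 46.2% and 47.5%, nearly all of it miR-143. miR-145a had 0.313%, 0.400% and 0.272% (0.328% ± 0.0650), lowest in oviduct 3, where miR-143 was highest. miR-145b had 1 count in all. The stromal list, with 8 of 8 hairpins counted, took 23.7%, 22.8% and 24.5%, most of it miR-10b and miR-10a, followed by miR-199a at 0.453% ± 0.0865 and miR-199b at 0.406% ± 0.0671. Its high in oviduct 3 follows miR-10b alone (14.7%, 13.6% and 18.5%). Every other hairpin of the list was lowest there, among them miR-10a (7.49%, 7.54% and 4.94%), miR-199a (0.486%, 0.518% and 0.354%) and miR-125b (0.334%, 0.348% and 0.193%).

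Epithelial lists were far smaller than the smooth muscle and fibroblast list and the stromal list, which rest on miR-143, miR-10b and miR-10a. The other stromal hairpins took means of 0.453% or less, beside 1.40% for miR-34c and 0.403% for miR-141. The multiciliated list took 1.85%, 1.46% and 1.27%, in which miR-34c led with 1.74%, 1.34% and 1.13%. miR-34b, miR-449a and miR-34a followed at 0.0910% ± 0.00674, 0.0212% ± 0.00811 and 0.00561% ± 0.000577, and miR-449b was listed at 0 counts. miR-34c was highest in oviduct 1, and miR-449a was highest in oviduct 3 (48, 127 and 86 counts, 0.0128%, 0.0219% and 0.0290%). The epithelial list, with 11 of 11 hairpins counted, took 1.26%, 1.38% and 0.858%, led by miR-141, miR-182, miR-200b and miR-429 at 0.403%, 0.194%, 0.188% and 0.182%. miR-203 and miR-205, typical of stratified epithelium, had 155 and 120 counts over the 3 libraries. Hairpins typical of ciliated and of other epithelial cells were thus counted in every library of this tissue, and the sum of both lists was lowest in oviduct 3. These sums follow miR-34c and miR-141, since miR-34b (0.0887%, 0.0858% and 0.0986%), miR-449a, miR-449c (0.00293%, 0.00517% and 0.00572%) and miR-203 (0.0120%, 0.0115% and 0.0145%) were highest in oviduct 3.

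Blood and vessel hairpins were present in all libraries. The endothelial list took 0.817%, 0.675% and 0.728%, nearly all from miR-126a, the hairpin in Egfl7. The red cell list took 0.9504%, 0.834% and 0.815%, mostly miR-486a and miR-486b, whose 5p strands carry the same counts under both names. With identical names counted once it took 0.488%, 0.428% and 0.419%. Of it, miR-451a, which is matured by Argonaute 2 without Dicer, had 53, 75 and 40 counts (135 CPM, coefficient of variation 4.405%), and miR-144 had 21 counts in all. The leukocyte list took 0.206%, 0.164% and 0.122%, led by miR-142a, typical of all blood cells, with 482, 449 and 162 counts. miR-146a, miR-150 and miR-223 followed at 0.0471%, 0.0224% and 0.00477%. Members of this list did not move together: miR-150 was highest in oviduct 3 (0.0157%, 0.0195% and 0.0320%). miR-146a (0.0546%, 0.0581% and 0.0286%) and miR-223 were highest in oviduct 2.

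Other lists stayed low. Of the neural and endocrine list, at 0.160%, 0.152% and 0.124%, miR-375 made up most with 557, 825 and 314 counts, while the neuronal miR-124 had 0 counts. The striated and vascular muscle list took 0.0615%, 0.0910% and 0.0502%, nearly all miR-133a (228, 510 and 141 counts). miR-1a had 28 counts, miR-133b 1, and miR-206, miR-208a and miR-499 had 0. The liver hairpin miR-122 had 0 counts in all 3 libraries, which allows a level of up to 10.1 CPM in the shallowest. Of 13 germ cell and early embryo hairpins 1 was counted, miR-290b with 2 counts in oviduct 2. The part of differing cell content in the differences between libraries was not tested.

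**Figure D4:**
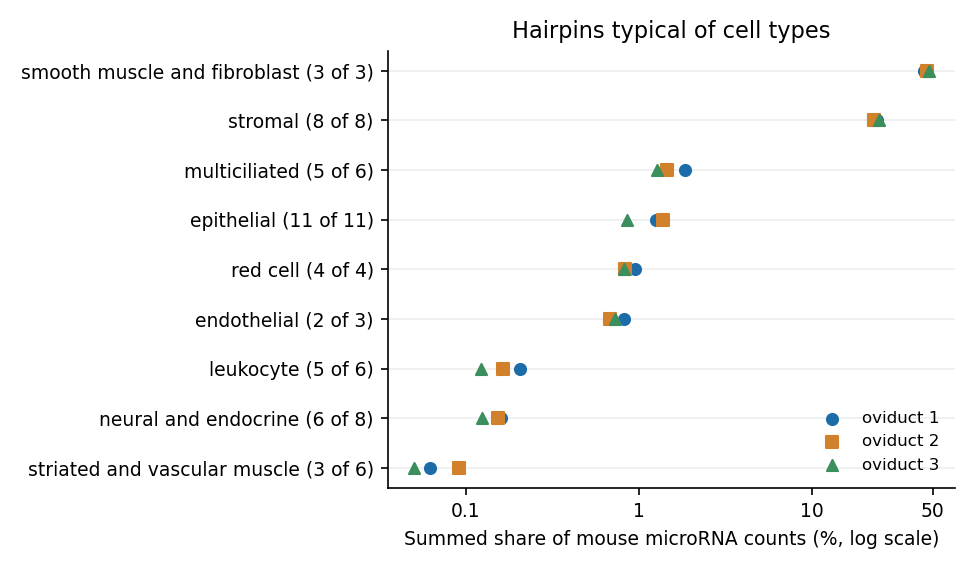
Summed share of mouse microRNA counts (%, log scale) of the hairpins of 9 cell type lists in each oviduct library, with the number of hairpins counted of those in the table in brackets. The smooth muscle and fibroblast list lies between 44.4% and 47.5% and the multiciliated and epithelial lists near 1%, and the liver and germ cell lists, at or near 0, are not drawn.

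Hairpins made from a shared genomic cluster had unequal levels. Hairpins with a single copy in the GENCODE M21 annotation and neighbours within 10000 bases on the same strand formed 29 clusters with at least 2 counted hairpins. In the 15 of these at 0.1% or more, the highest hairpin supplied a median of 89.1% of the cluster. miR-143 was 139 times as high as miR-145a on chromosome 18. miR-27b was 15.9 times as high as miR-23b (chromosome 13, 63300484 to 63300784), miR-34c 15.4 times as high as miR-34b (chromosome 9, 51103034 to 51103645) and miR-191 45.1 times as high as miR-425 (chromosome 9, 108568319 to 108568861). miR-182 was 354 times as high as miR-96 from the same cluster on chromosome 6. That ratio is imprecise, because miR-96 had only 3, 1 and 2 counts. More even clusters were miR-99b, let-7e and miR-125a, where the highest hairpin held 49.4%, and miR-23a and miR-27a, where it held 56.6%. Of the 100 most counted hairpins 94 could be placed, and 67 of them had an annotated gene on the same strand around at least 1 copy.

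The 3 libraries resembled each other closely but not to counting error. Across the 633 counted names, Pearson's r of log2(CPM + 1) was 0.945, 0.929 and 0.941 for the 3 pairs of libraries, and Spearman's rho was 0.849, 0.831 and 0.848. Names are not independent replicates, and these values are a description. Among the names with a mean of at least 100 CPM, r was 0.979, 0.969 and 0.975, and the median fold between a pair of libraries was 1.25 to 1.29. The median coefficient of variation of these names was 19.7% (quartiles 13.2% and 29.8%), whereas counting error alone gives a median of 6.40%. Only 8 names varied no more than counting error. The edgeR common dispersion of 0.0621 corresponds to a biological coefficient of variation of 24.9%. The chi-square per degree of freedom between the counts of pairs of libraries was 28.8 to 51.3, so no library was a copy of another within counting error, which says nothing on whether the samples were separate animals.

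The coefficient of variation was larger at lower levels, and so was counting error. Its median was 15.7% for names of at least 10000 CPM, 20.99% between 100 and 1000 CPM and 36.9% between 10 and 100 CPM. Counting error alone gives medians of 1.14%, 9.87% and 29.1% for these levels. Among names of at least 100 CPM, those with the largest ratios between libraries had means from 134 to 3967 CPM. miR-434-3p, from the imprinted Dlk1-Dio3 region, was low in oviduct 1 (45.3, 172 and 185 CPM, 4.09-fold between the highest and lowest library). miR-541-5p, from the same region, was also lowest there (120, 298 and 286 CPM). miR-101a-3p was high in oviduct 1 alone, with 5498, 1778 and 2077 CPM, 3.09-fold. miR-101b-3p had 349, 336 and 357 CPM, the smallest ratio among names of at least 100 CPM at 1.06. Its coefficient of variation of 3.03% was below the 8.63% that counting error alone gives. miR-101a-3p and miR-101b-3p share a number but not the seed as counted here. miR-141-3p was lowest in oviduct 3, with 5894, 4189 and 1818 CPM (3.24-fold). miR-199a-5p was lowest in oviduct 3 (679, 588 and 252 CPM) and miR-98-5p highest there (130, 171 and 316 CPM).

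At the other end, miR-143-3p varied by only 1.07-fold, miR-92b-3p by 1.09-fold, miR-451a by 1.09-fold and miR-26b-5p by 1.12-fold. Of the names with a mean of at least 100 CPM, 26 varied more than 2-fold between the highest and lowest library and 4 more than 3-fold. These 4 include both miR-101a-3p and miR-101c, whose counts differ by at most 1 in a library. The highest library was oviduct 1 for 40 names, oviduct 2 for 62 and oviduct 3 for 41. No library was highest for most names.

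**Figure D5:**
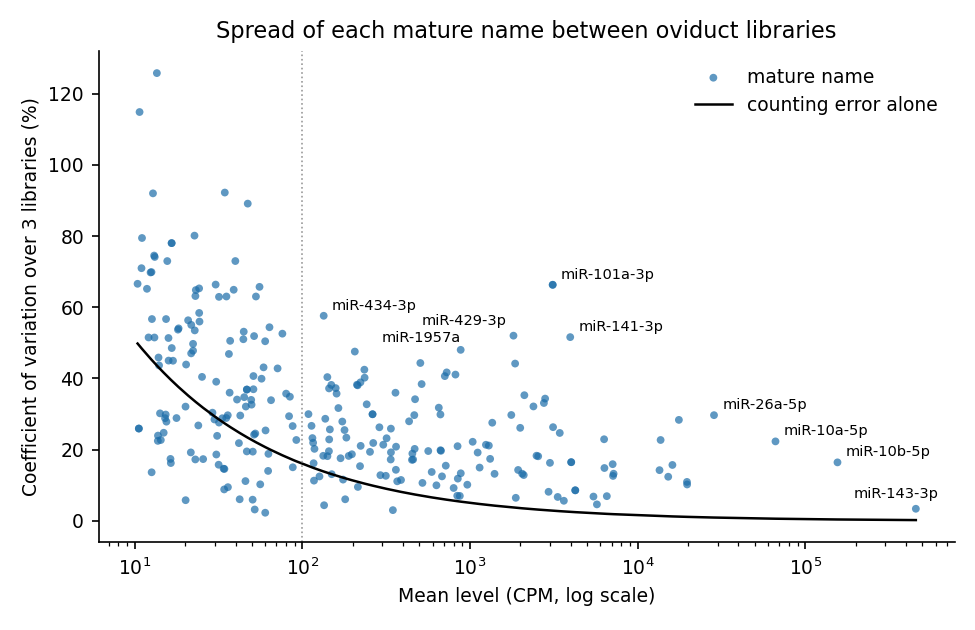
Coefficient of variation over the 3 libraries (%) against the mean level (CPM, log scale) of each mature name with a mean of at least 10 CPM. The line is the value that counting error alone gives, and the dotted line marks 100 CPM; nearly all names to its right lie above the curve, with miR-101a-3p and miR-101c overlapping at 66.3% and miR-143-3p at 3.41%.

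Some names could not be told apart by their counts. There were 5 pairs of names with the same counts in all 3 libraries and at least 20 counts in total: miR-486a-5p and miR-486b-5p, miR-199a-3p and miR-199b-3p, miR-28a-5p and miR-28c, let-7a-1-3p and let-7c-2-3p, and miR-374b-5p and miR-374c-5p. The repeated names of these pairs added 0.754% to 0.914% to the library totals. This range leaves out miR-101c, which held 0.550%, 0.178% and 0.208% of the counts. miR-101c, whose 19 bases lie within miR-101a-3p from its base 2 on, had 2066, 1032 and 617 counts beside 2065, 1032 and 617 for miR-101a-3p, a difference of at most 1. The pair is printed to show the overlap, with each name's own seed in capitals.
miR-101a-3p: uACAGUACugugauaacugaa
miR-101c: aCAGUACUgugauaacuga
Levels of such pairs are therefore uncertain as to which locus they came from.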

How the data were processed

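The authors deposited raw counts per mature microRNA name, analysed here for 3 oviduct libraries, per the file headers made from BAM files of trimmed reads; the authors trimmed adapters with cutadapt, per the submitters' processing notes. RNA came from a miRNeasy extraction and libraries from a TruSeq small RNA kit, per the labels' protocols. For the aligner, microRNA reference, genome build and handling of reads that match several names, the methods were not given in the sources used here. The 67 names of other species held 1 oviduct count and were left out. Precision is set by totals of 297039 to 580390 counts.

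Members, lists and tests were chosen with earlier results of these data known. Shares were taken of the mouse counts of a library, with mean and SD over 3 libraries and Clopper-Pearson 95% intervals. Copies of a hairpin were pooled. A name with no RefSeq sequence joined the seed of at least 2 names of its number and arm where these shared one, which applied to 4 names, and otherwise stood alone, as 288 did. Arms were compared with edgeR 4.0.16 (R 4.3.3), with a 5p and a 3p column per library, the library as a block, the mouse total as library size, and hairpins with a mean of at least 20 counts. Adjusted p-values are Benjamini-Hochberg values, threshold 0.05. The test was run on simulated counts with smaller arm excesses than most of those seen here, so that run does not bear on the largest excesses.

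The text names the 15 names and 15 hairpins and the 12 families with the highest share, up to 4 hairpins of each list, the 8 largest excesses of each arm and the 8 ratios nearest 1 (mean of at least 100 counts), and the 8 largest and 5 smallest ratios between libraries (mean of at least 100 CPM). Others were named after their values were seen. Alternatives were DESeq2 1.42.0, limma 3.58.1 with pseudocounts of 0.5 and 5, other filters and scalings, no block, pooling by number, identical names counted once, and leaving out each library. Positions came from GENCODE M21 on GRCm38. Figures used Python 3.11.15 and matplotlib 3.10.9.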

Additional observations from a re-analysis of the deposited data

How the results depend on the processing

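With the library block dropped (no replicate block) 135 hairpins were called, 75 to 5p and 60 to 3p, with miR-708 gained and none lost, where the blocked fit called 134. DESeq2 called 132, losing miR-129 and miR-361, and limma with either pseudocount called the same 134. A minimum of 100 counts left 93 hairpins to test, of which 92 were called, 36 of them to 3p. With no minimum 163 of 376 were called, and miR-129 and miR-361 were lost. Against a 2-fold excess (glmTreat) 129 were called, losing let-7d, miR-872 and miR-34b among others. Leaving out each library gave 121 to 137 calls, and no alternative turned a call to the other arm. miR-423, which was not called, had log2 ratios from -0.37 to 0.066 when a library was left out and changed sign without oviduct 2 (edgeR adjusted p = 0.905). The calls of miR-28a (edgeR adjusted p = 0.0741 without oviduct 1 and 0.0531 without oviduct 2) and of miR-872 (0.0521 without oviduct 1) were lost; the cause was not tested.

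Leaving miR-143 out of the totals moved the concentration by construction, to 67.6% in the top 10 names, 41 names for 90% and an inverse Simpson number of 9.21. Leaving out a library kept miR-143-3p between 44.96% and 46.52% and the top 10 names between 80.5% and 81.6%. The median coefficient of variation was then 15.6% to 17.6%, against 19.7% for all 3 libraries. A median over 2 libraries tends to be lower than over 3, so this fall does not show what each library adds. The biological coefficient of variation was 25.2% without oviduct 1, 26.9% without oviduct 2 and 22.5% without oviduct 3, against 24.9%. Pooling by number gave 1.12% for the miR-92b-3p family. Depth limits names under about 10 CPM, and 3 libraries limit every SD.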

Other observations

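Names without a stated arm, 324 in the table and 69 of them counted, held 1.04%, 0.807% and 0.708% of the counts. The 3 highest, miR-5099 (3340 ± 225 CPM, SD, n = 3), miR-101c and miR-1957a (562, 1361 and 720 CPM, highest in oviduct 2), made up 85.8% of them. miR-101c (5500, 1778 and 2077 CPM, highest in oviduct 1) repeats the counts of miR-101a-3p within 1 count. The high share in oviduct 1 therefore includes counts also listed under a 3p name. Names without a stated arm entered no arm comparison.

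miR-92a-3p took 0.546% ± 0.0374 and is encoded at 2 places, one of them on chromosome 14 beside miR-17, miR-19a and miR-20a. Those 3 hairpins together took 0.00612%, 0.00655% and 0.00404%, with miR-17 the highest. The counts do not say from which place miR-92a-3p came.

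In the imprinted region on chromosome 12, a cluster of 8 counted hairpins from 109585789 to 109595388 took 0.218%, 0.315% and 0.309%, and miR-127 supplied 89.1% of it. A cluster of 27 counted hairpins from 109709060 to 109743795 took 0.0679%, 0.117% and 0.122%, led by miR-411. Both were lowest in oviduct 1, as were miR-434-3p and miR-541-5p, which belong to them.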
